A study of Rattus norvegicus with 12 samples.

Results

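Among 12 RNA sequencing libraries of the rat periaqueductal grey, 3 were nearly without transcripts of Tph2, the enzyme that starts serotonin synthesis in neurons, and of Chat, the enzyme that makes acetylcholine. These were saline-sired 1, saline-sired 6 and morphine-sired 1. They were chosen by their measured values: a library belonged to the low-marker side where Tph2 lay under 1 TPM and Chat under 2 TPM, TPM being the deposited measure of transcript abundance, corrected for length and library total and summed here over the transcripts of a gene. The other side held the remaining 9 libraries, namely saline-sired animals 2 to 5 (n = 4) and morphine-sired animals 2 to 6 (n = 5). The animals were male Sprague Dawley rats, the progeny of males given saline (6 animals) or morphine (6 animals), each library coming from polyA RNA of dissected, frozen tissue. Ages, morphine doses, litters and sires were not given in the sources used here, and no treatment of the animals themselves is stated in the labels. The labelled comparison of the study is sire treatment, which is not the contrast described here. Replicate numbers only name the libraries.

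The periaqueductal grey surrounds the midbrain aqueduct and sends descending pathways that modulate pain, and opioids act there. Its ventral and caudal borders touch serotonin neurons of the dorsal raphe and cholinergic motor neurons of the oculomotor and trochlear nuclei, and its rostral end meets the thalamus and pretectum. Transcripts of these neighbouring cell groups can therefore be present in or absent from a piece of dissected midbrain. In bulk tissue, fewer cells of a type and less RNA per cell cannot be told apart, and the position of each dissection was not given in the sources used here.

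The values that chose the libraries are given first, as a description. Chat stood at 0.0955 TPM in saline-sired 1, 0.569 in saline-sired 6 and 1.15 in morphine-sired 1, against a lowest value of 17.1, a median of 23.8 and a highest of 36.4 in the other 9. No library lay between 1.15 and 17.1 TPM, so the cholinergic marker separated the libraries with a wide gap. Tph2 stood at 0.45, 0.672 and 0.489 TPM in the same 3 libraries. In the other 9 it was spread widely, from 1.15 TPM in morphine-sired 6, 3.00 in morphine-sired 4 and 3.05 in morphine-sired 5. Saline-sired 4 stood at 22.7, saline-sired 5 at 23.1 and morphine-sired 3 at 39.1 TPM. The highest were 195 in morphine-sired 2, 196 in saline-sired 3 and 445 in saline-sired 2. No library lay between 3.05 and 22.7 TPM or between 39.1 and 195 TPM. Morphine-sired 6 was the library just outside the rule, with Tph2 at 1.15 TPM and Chat at 17.1 TPM. The label of raphe and motor markers thus holds differently for its parts. The near absence of Chat set the 3 libraries apart. A low Tph2 was shared with morphine-sired 6, and Tph2 rose from there in uneven steps.

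**Figure D1:**
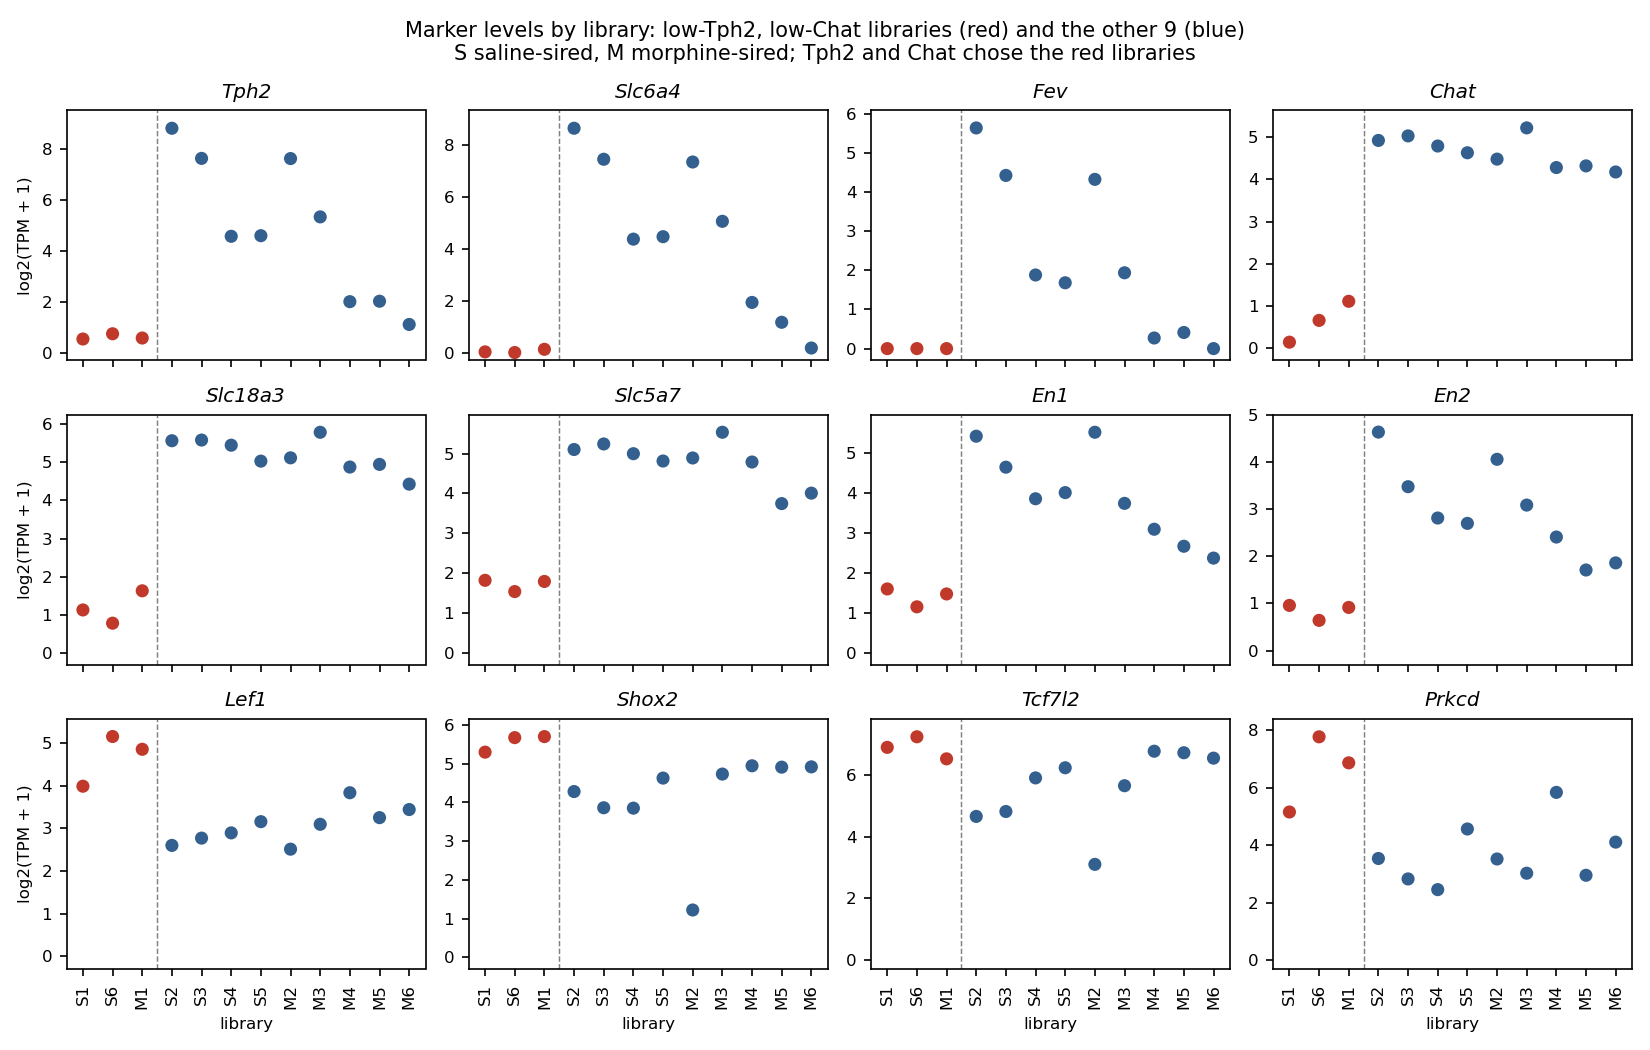
log2(TPM + 1) of 12 marker genes (vertical axes) in each library (horizontal axes), with the 3 low-marker libraries in red and the other 9 in blue, 1 point per library. Chat, Slc18a3 and Slc5a7 leave a gap between red and blue points, Tph2 and Slc6a4 descend in steps to morphine-sired 6 (M6), and Tcf7l2 and Prkcd overlap.

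The 24538 genes averaging 0.5 TPM or more over the 12 libraries were compared between the sides, with Tph2 and Chat set aside. Because measured values of these same libraries chose the sides, the comparison carries no test and no p-value. A gene is called lower or higher here where all 3 low-marker libraries lay beyond all 9 others and the difference of mean log2(TPM + 1) was at least 1 in size; that scale understates the differences of low genes. By this rule 33 genes were called lower, 0.134% of those compared, and 84 genes were called higher, 0.342%. Without the size condition, the 3 libraries lay below all others in 381 genes (1.55%) and above all others in 677 genes (2.76%). Leaving out 1 low-marker library gave 83 lower and 202 higher genes (without saline-sired 1), 66 and 124 (without saline-sired 6) or 74 and 153 (without morphine-sired 1), fewer libraries then having to be separated. The median difference over all genes was 0.02, so the 2 sides had nearly the same scale. Symbols other than placeholders were held by 26 of the 33 lower and 37 of the 84 higher genes. No symbol was held by 37 of the higher genes, and by 8133 of all 24538 genes compared. Such entries can be assembled transcripts, also at loci with several symbols, or annotated transcripts without a name.

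Depth, taken from coverage and FPKM, ran from 4.385 to 5.96 gigabases on the low-marker side and from 4.453 to 6.032 gigabases on the other. Mitochondrial transcripts made up 11.04% to 12.76% of TPM in the 3 libraries and 9.215% to 12.09% in the other 9, with a median of 10.69%. Transcripts assembled in the series made up 29.05% to 29.31% and 27.64% to 29.56%. These ranges overlapped, and their part in the differences below was not tested.

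Principal components of all genes compared, again without Tph2 and Chat, placed the 3 libraries together on the second component, which held 13.8% of the variance. Their scores were 33.4 (saline-sired 1), 46.1 (saline-sired 6) and 29.5 (morphine-sired 1), and those of the other 9 were 4.6 or lower. The first component, with 18.2% of the variance, did not separate them; its extreme was morphine-sired 2, at -67.4. On the second component, morphine-sired 6 (4.6) and morphine-sired 4 (4.4) lay nearest to the 3 libraries.

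**Figure D2:**
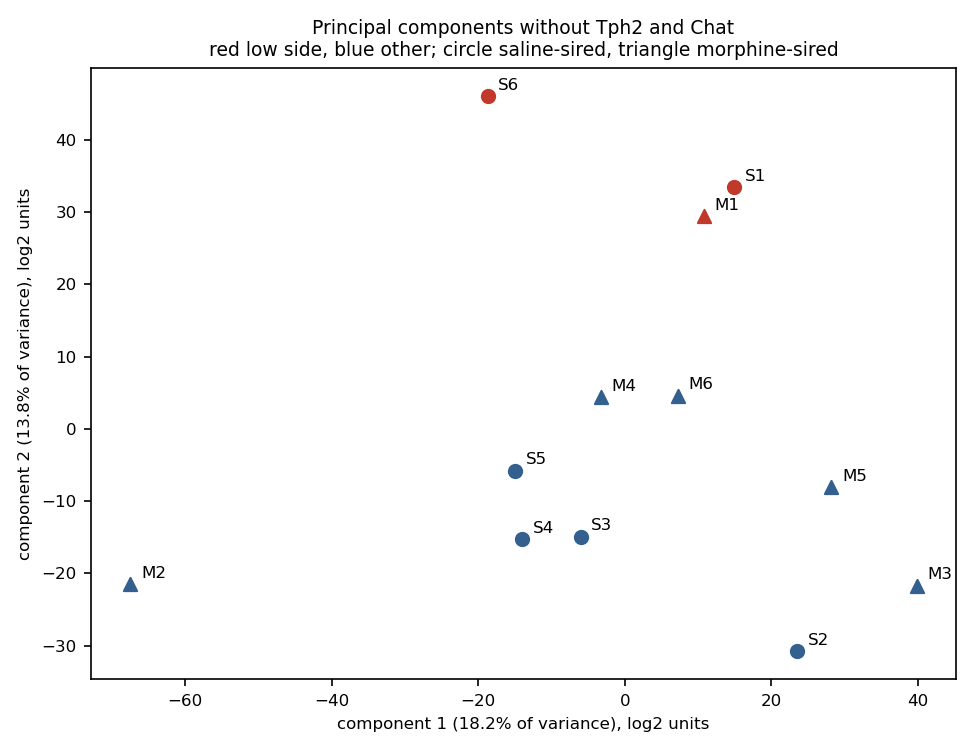
Scores of the 12 libraries on the first (horizontal) and second (vertical) principal component of log2(TPM + 1), in log2 units; red marks the low-marker libraries, circles the saline-sired and triangles the morphine-sired animals. The 3 red points lie at 29.5 or higher on the second component, above every blue point.

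The cholinergic transporter genes were low together with Chat, which had chosen the libraries. A cholinergic neuron makes acetylcholine with Chat, loads it into vesicles with the product of Slc18a3 and takes choline back up with that of Slc5a7. Slc18a3 stood at 1.19, 0.724 and 2.1 TPM in the 3 libraries and between 20.5 and 54.1 TPM (median 33.7) in the other 9, a difference of -4.01 on the log2 scale with SDs of 0.43 (n = 3) and 0.43 (n = 9). Slc5a7 stood at 2.52, 1.9 and 2.46 TPM against 12.4 to 45.4 TPM (median 28.6), a difference of -3.08. All 3 low-marker libraries were at similarly low levels of both genes, and their highest value lay far under the lowest of the others. Slc18a3 (chromosome 16, 8682669 to 8685529 on Rnor_6.0, a single exon) lies inside the span of Chat (8577840 to 8686131, same strand), so reads of these genes cannot be fully told apart and Slc18a3 is not independent of the gene that chose the libraries. Slc5a7 is on chromosome 9 (5293378 to 5330989, 9 exons in its longest model).

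The sequences just before the RefSeq start sites are shown for 4 of the called genes. These are the pair of cholinergic transporters, the midbrain regulator En1 among the lower genes and the regulator Lef1 among the higher. They are the 250 bases before each start on GRCr8, 5′ to 3′ on the strand of the gene, credited to RefSeq, with capitals marking any match to a searched motif. Slc18a3 lies at chr16:7722815-7723064 (minus strand), Slc5a7 at chr9:7953510-7953759 (minus), En1 at chr13:34303434-34303683 (plus) and Lef1 at chr2:222340463-222340712 (plus).
Slc18a3: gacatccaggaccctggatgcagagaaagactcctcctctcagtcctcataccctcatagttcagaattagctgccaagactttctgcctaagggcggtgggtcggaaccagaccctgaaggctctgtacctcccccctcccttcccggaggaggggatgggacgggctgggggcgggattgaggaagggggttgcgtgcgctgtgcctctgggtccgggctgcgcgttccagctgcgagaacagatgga
Slc5a7: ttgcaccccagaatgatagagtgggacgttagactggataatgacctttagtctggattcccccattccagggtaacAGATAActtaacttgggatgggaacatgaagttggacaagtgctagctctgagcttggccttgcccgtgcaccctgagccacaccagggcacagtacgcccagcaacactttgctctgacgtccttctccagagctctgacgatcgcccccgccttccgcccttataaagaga
En1: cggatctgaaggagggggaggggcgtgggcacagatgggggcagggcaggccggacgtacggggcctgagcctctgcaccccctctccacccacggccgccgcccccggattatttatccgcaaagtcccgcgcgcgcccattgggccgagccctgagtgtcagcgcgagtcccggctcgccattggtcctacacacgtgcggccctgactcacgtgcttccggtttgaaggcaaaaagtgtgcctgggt
Lef1: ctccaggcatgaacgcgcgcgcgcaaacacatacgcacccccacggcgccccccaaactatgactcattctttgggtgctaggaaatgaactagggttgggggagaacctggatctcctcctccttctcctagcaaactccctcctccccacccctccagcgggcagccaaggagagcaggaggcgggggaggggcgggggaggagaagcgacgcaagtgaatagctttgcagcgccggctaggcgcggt
Of these 4 sequences, only that of Slc5a7 held a searched motif, the GATA core AGATAA from base 78 on the plus strand. AGATAA was in 10% of all 27457 RefSeq promoter windows of this length, the homeodomain core TAATTA in 4.94% and the LEF/TCF core CTTTGA in 13.8%, with both strands searched. Among the called genes, 19 of 33 lower and 29 of 84 higher genes matched a window by symbol. AGATAA was in 3 of the 19 and 4 of the 29, CTTTGA in 2 and 3, and TAATTA in 0 and 0. A match is a run of letters, not a shown binding site. On GRCr8 the start sites of Chat and Slc18a3 are 602 bases apart.

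Of 13 cholinergic and motor neuron genes in the list, Chat had chosen the libraries, 3 lay below the filter, and 9 were compared. All 9 had a lower mean on the low-marker side, 4 were called lower, and the list's median difference was -1.004, against 0.02 over all genes. Beside the transporters, these were Calcb, which encodes a calcitonin gene-related peptide, and Isl1, a homeodomain factor of motor neurons. Calcb stood at 0.604, 0.834 and 0.77 TPM against 4.38 to 15.9 TPM (median 10.2), a difference of -2.51. Isl1 stood at 0.148, 0 and 0.0646 TPM against 0.726 to 2.17 TPM (median 1.4). Prph, a peripheral-type neurofilament of motor neurons, lay below all others with a smaller difference: 49.4, 61 and 62.1 TPM against 80.6 to 170 TPM. So did the receptor gene Ret, at 32.9, 23.6 and 23.8 TPM against 35.6 to 70.9 TPM; from annotated transcripts alone, 12.8% of its level, Ret overlapped.

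The remaining 3 genes of the list overlapped. Ache, which breaks down acetylcholine, stood at 182, 187 and 218 TPM against 180 to 221 TPM, at a locus shared with another symbol. Calca, the neighbour peptide gene of Calcb, stood at 13.4, 9.26 and 7.15 TPM against 5.67 to 18.7 TPM. Chodl overlapped through saline-sired 1, at 5.37, 1.79 and 4.41 TPM against 4.97 to 13.7 TPM.

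Other lower genes with large differences were outside that list. Slc10a4, a vesicular transporter relative found in cholinergic and monoamine neurons, stood at 4.72, 0.716 and 2.4 TPM against 18.6 to 160 TPM (median 42.2), a difference of -3.95; its locus shares assembled transcripts with another symbol, which makes its level uncertain. Uts2, the peptide urotensin 2, stood at 0, 0 and 0.392 TPM against 2.16 to 14.1 TPM. Lhx4, a LIM homeodomain factor, stood at 0.0398, 0.0734 and 0.177 TPM against 1.99 to 9.84 TPM. Both were near 0 in all 3 libraries and present in each of the other 9. Sncg, gamma-synuclein, was the only member called among 10 neurofilament and axon genes, at 139, 95.9 and 126 TPM against 234 to 541 TPM (-1.52). The neurofilament genes Nefm and Nefl overlapped because saline-sired 6 was higher than the other low-marker libraries: Nefm stood at 442, 787 and 477 TPM against 752 to 2123 TPM, and Nefl at 634, 960 and 682 TPM against 932 to 2422 TPM.

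Most serotonergic genes had a lower mean in the 3 libraries, but most of them did not separate from the others. Of 14 genes in the list, Tph2 had chosen the libraries and 13 were compared: 12 had a lower mean, 1 was called lower, and the median difference was -0.81. The called gene was Slc6a4, the serotonin transporter, with 0.0176, 0 and 0.09 TPM against 0.128 TPM in morphine-sired 6 and up to 398 TPM in saline-sired 2 (median 21.1). Its difference of -4.46 is the largest of all calls in size, with an SD of 0.07 among the 3 and of 2.97 among the 9. Morphine-sired 6 was thus nearly as low as the 3, and the call rests on a gap from 0.09 to 0.128 TPM. With annotated transcripts alone, which hold 0.912% of its level, Slc6a4 was not called.

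Fev, the transcription factor of serotonin neurons, was at 0 TPM in all 3 libraries and also in morphine-sired 6, and reached 49 TPM in saline-sired 2. Gch1, which supplies the cofactor of serotonin and dopamine synthesis, stood at 3.23, 1.75 and 2.96 TPM against 3.22 to 61.7 TPM. Lmx1b, a regulator of serotonin and dopamine neurons, stood at 1.28, 0.148 and 0.407 TPM against 1.18 to 16.4 TPM. The lowest other value of Fev, Gch1 and Lmx1b was in morphine-sired 6 in each case. Slc18a2, the vesicular monoamine transporter, stood at 13.7, 5.63 and 9.33 TPM against 7.12 to 149 TPM, and Ddc, the decarboxylase of monoamine synthesis, at 14.5, 8.41 and 11.1 TPM against 12.6 to 105 TPM. Here the lowest other library was morphine-sired 5. Htr5b and Slc17a8 overlapped as well, with differences of -0.81 and -0.73. The remaining members of the list had smaller differences, from -0.44 to 0.32, and all overlapped. Gchfr, which regulates the Gch1 enzyme and is not in the list, was called lower at 4.45, 8.14 and 8.34 TPM against 11.8 to 228 TPM, with the highest values in saline-sired 2.

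Dopamine markers were mostly low but overlapping. Of 12 genes, 11 had a lower mean, 1 was called (En1, which the list shares with the tectal list) and the median difference was -0.73. Th, the rate-limiting enzyme of catecholamine synthesis, stood at 62.4, 29.7 and 38.1 TPM against 19.6 to 309 TPM (median 62). Slc6a3, the dopamine transporter, stood at 2.88, 2.36 and 1.24 TPM against 2.88 to 103 TPM (median 9.21), with saline-sired 1 level with morphine-sired 5. Drd2, the dopamine autoreceptor, lay below all others by less than the size used for a call, at 12.1, 8.89 and 9.84 TPM against 12.6 to 30.7 TPM. Of 7 noradrenergic genes, 3 passed the filter and none was called; Dbh, which makes noradrenaline, reached at most 1.02 TPM in any library.

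The engrailed genes, homeodomain factors of the midbrain-hindbrain boundary, were lower together. En1 (chromosome 13, 36532758 to 36537093) stood at 2.03, 1.22 and 1.78 TPM against 4.18 to 45.2 TPM (median 13.5), a difference of -2.52 with SDs of 0.23 (n = 3) and 1.12 (n = 9). En2 (chromosome 4, 438013 to 444501) stood at 0.942, 0.558 and 0.885 TPM against 2.27 to 23.9 TPM (median 6.03), a difference of -2.13. Both were lowest on the other side in morphine-sired 5 or 6 and highest in saline-sired 2 or morphine-sired 2. Pax5, a paired-box factor of the same boundary, was called lower with a gap of almost nothing: 0.323, 0.143 and 0.305 TPM against 0.329 TPM in morphine-sired 6 and up to 13.9 TPM. Of the 16 tectal and dorsal midbrain genes compared, En1 and En2 were called lower and Lhx2 higher, with a median difference of -0.29. Of the 13 ventral midbrain regulators compared, only Isl1 was called, with a median of -0.42. Irx3 lay below all others with 7.1, 8.05 and 7.71 TPM against 8.68 to 19.8 TPM, all of it from assembled transcripts, and Foxa2, a floor plate factor, overlapped at 10.7, 6.74 and 4.8 TPM against 4.88 to 20.6 TPM. None of the 16 Hox genes of the list, which mark the hindbrain and spinal cord, passed the filter; of all 44 Hox genes found, 1 did, and the highest level of any was 1.41 TPM, or 1.31 TPM in the low-marker libraries.

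The thalamic and habenular list had the highest median of all lists. Of 12 genes, 11 were compared: 10 had a higher mean, 3 were called higher, 2 lay above all others by less, and the median difference was 1.11, against 0.02 over all genes. With annotated transcripts alone the median of the list was 0.25. Annotated transcripts held 6.04% of the level of Shox2 and 19.5% of that of Prkcd. From them alone Shox2 overlapped, with a difference of 0.096. Lef1, a factor that acts downstream of Wnt signals and marks thalamic neurons, stood at 14.9, 34.7 and 28 TPM against 4.7 to 13.3 TPM (median 7.55), a difference of 1.60 with SDs of 0.61 (n = 3) and 0.42 (n = 9). Shox2, a homeodomain factor, stood at 38.3, 49.9 and 50.9 TPM against 1.33 to 29.8 TPM (median 23.7), and Ntng1, a netrin relative on axons, at 35.3, 49.5 and 46.5 TPM against 13.6 to 34.9 TPM. The nearest other library was morphine-sired 4 for all 3 genes, and for Ntng1 the gap to it was 35.3 against 34.9 TPM.

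The members with the largest differences overlapped. Prkcd, a protein kinase C of thalamic and habenular neurons, stood at 34.7, 218 and 116 TPM against 4.5 to 56.3 TPM (median 10.5), a difference of 2.95, with morphine-sired 4 above saline-sired 1. Gbx2, a thalamic homeodomain factor, stood at 14.7, 28.3 and 27.5 TPM against 0.583 to 16.4 TPM (median 4.27), again with morphine-sired 4 above saline-sired 1. Tcf7l2, the Wnt pathway factor that labels thalamus and pretectum, stood at 119, 151 and 91.5 TPM against 7.58 to 109 TPM (median 59.2), a difference of 1.29; morphine-sired 4, 5 and 6 lay above morphine-sired 1. Annotated transcripts held 0.387% of the Tcf7l2 level and 18.4% of that of Gbx2, and from them alone both differences were negative, -0.38 and -0.40. Tcf7l2 is therefore higher on average in the 3 libraries without separating them. Pou4f1, a factor of medial habenula neurons, went the other way, at 3.78, 3.23 and 3.17 TPM against 4.54 to 12.6 TPM. Slc17a6, the vesicular glutamate transporter of thalamic and midbrain neurons, stood at 202, 206 and 204 TPM against 78.2 to 176 TPM, above all others by 0.63 on the log2 scale. Lhx2, a LIM homeodomain factor, was called higher at 19, 16.1 and 22.2 TPM against 2.46 to 14.8 TPM. Its gap was under 1.1-fold, and from annotated transcripts alone, 85.7% of its level, Lhx2 was not called. Its relative Lhx9 overlapped at 12.3, 16.4 and 23.5 TPM against 1.16 to 16.5 TPM.

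**Figure D3:**
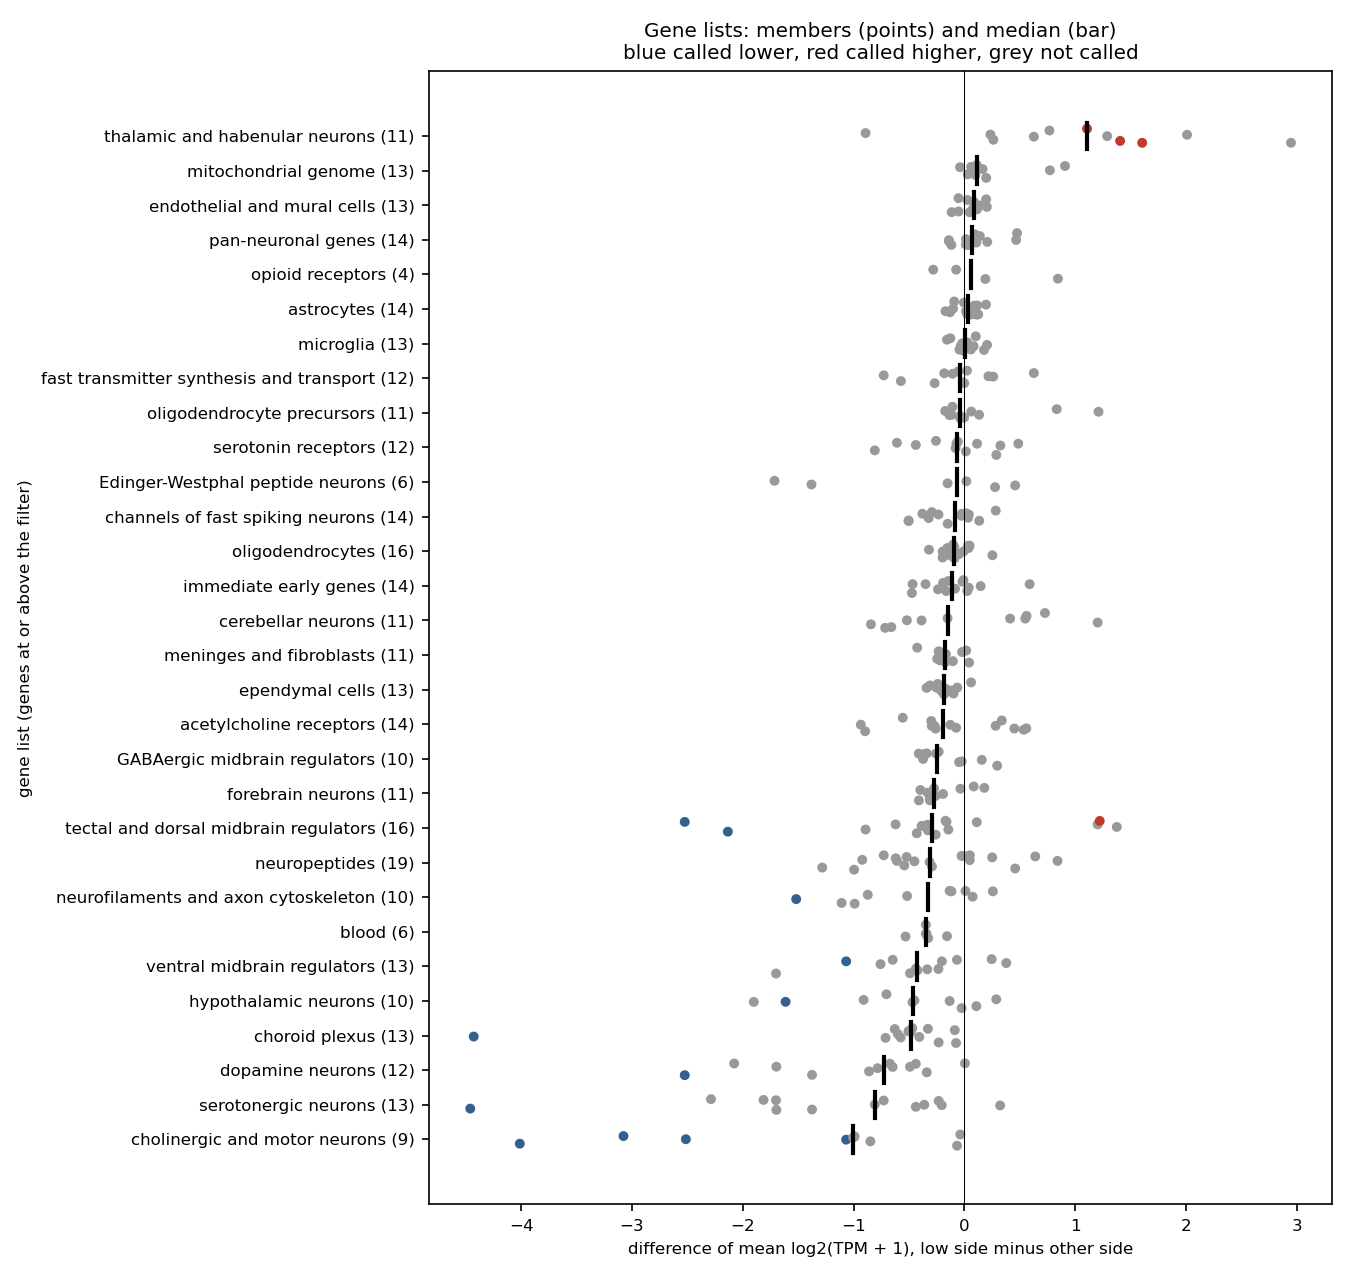
Difference of mean log2(TPM + 1), low-marker side minus other side (horizontal axis), for each compared member of the 30 lists with at least 4 compared genes (rows), with blue points called lower, red points called higher, grey points not called and a black bar at the median. Cholinergic and serotonergic lists have the lowest medians, at -1.004 and -0.81, and the thalamic and habenular list the highest, at 1.11.

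Outside the lists, the called gene with a proper symbol and the largest positive difference was Necab1. Necab1, a calcium-binding protein of neurons, stood at 48.7, 62 and 70.4 TPM against 9.69 to 43.5 TPM (median 13.4), a difference of 1.93 with SDs of 0.27 (n = 3) and 0.62 (n = 9). Gabra4, a GABA-A receptor subunit abundant in the thalamus, stood at 22, 50.3 and 34.1 TPM against 6.18 to 18.6 TPM. Mgll, the lipase that degrades the endocannabinoid 2-arachidonoylglycerol, stood at 77.3, 127 and 130 TPM against 22.4 to 57.3 TPM. Rgs4, a regulator of G protein signalling, stood at 66.2, 112 and 82.6 TPM against 28 to 54 TPM. Each of these 4 genes was highest on the other side in morphine-sired 4. Foxp2, a forkhead factor, was even among the 3 libraries, at 9.9, 10.5 and 10.8 TPM against 0.57 to 7.43 TPM, although its locus is shared with another symbol.

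Further called genes were Lrrc7, a protein of excitatory synapses, at 9.95, 13.8 and 6 TPM against 1.11 to 4.43 TPM, and the circadian-type transcription factor Hlf, at 50.5, 82.8 and 62.9 TPM against 16.9 to 40.3 TPM. Ildr2, Stum, Plekhg1 and Gpr63 had differences of 1.39, 1.75, 1.64 and 1.40. Stum and Plekhg1 had gaps under 1.1-fold between the nearest libraries, at 31.8 against 30.6 TPM and 14.8 against 13.6 TPM. Plxnb2 and Mif4gd share their loci with other symbols; Plxnb2 was uneven (3.73, 24 and 9.14 TPM against 0.67 to 3.26), and Mif4gd was called only through saline-sired 1 and 6 (4.22 and 4.85 TPM), since morphine-sired 1 stood at 0.188 TPM against at most 0.182 TPM in the others. From annotated transcripts alone, 13 of the 15 lower and 8 of the 15 higher genes with the largest differences were still called. Those not called were Slc6a4 and Pax5 among the lower, and Hlf, Lrrc7, Stum, Ildr2, Plekhg1, Gpr63 and Shox2 among the higher. Annotated transcripts held 2.7% of the level of Hlf, 9.96% of Lrrc7, 5.92% of Stum and 14.1% of Ildr2. They held 0% of Plekhg1 and Gpr63. The largest positive difference among the calls, 2.82, was at MSTRG.18098, an entry of 1 exon without a symbol on chromosome 4 (146777144 to 146779228). It stood at 2.72, 23.8 and 8.33 TPM against 0 to 2.38 TPM.

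**Figure D4:**
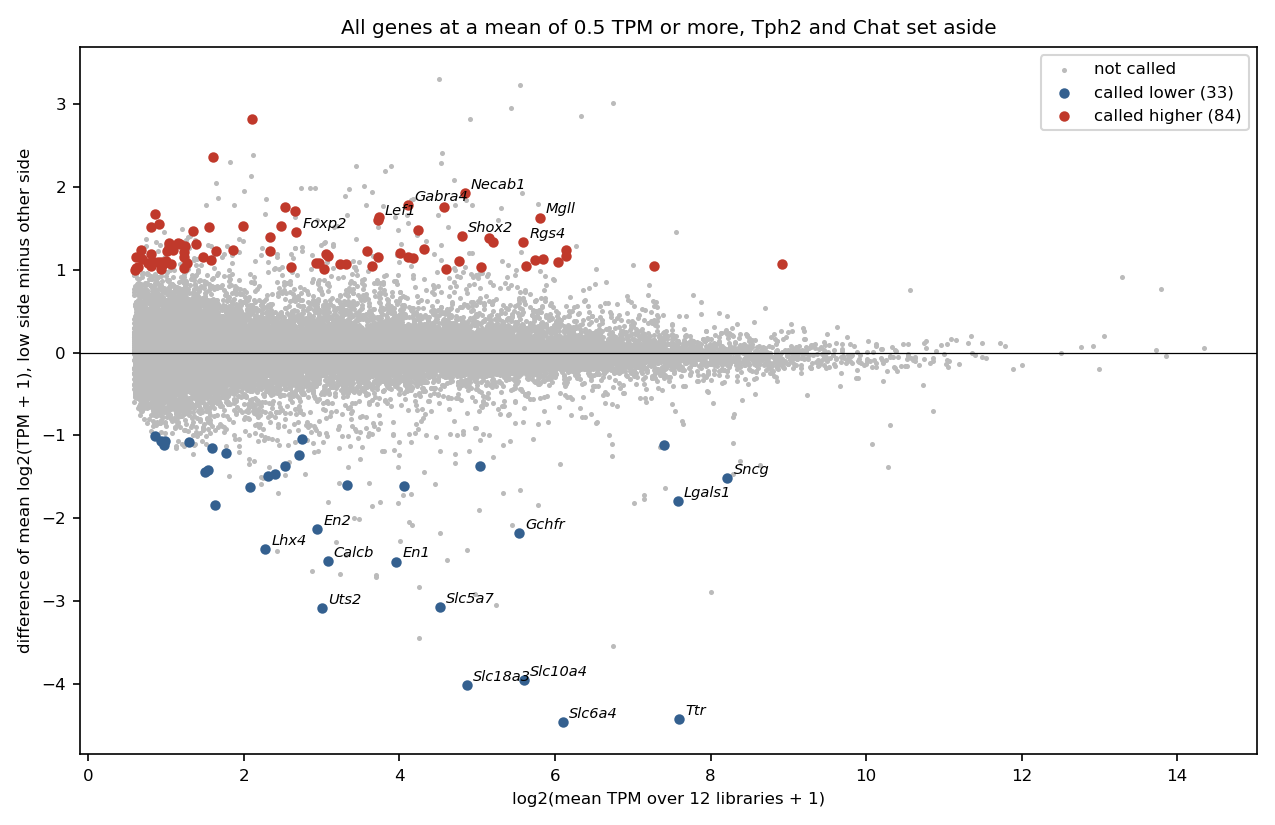
Difference of mean log2(TPM + 1), low-marker side minus other side (vertical axis), against log2 of the mean TPM over 12 libraries plus 1 (horizontal axis), 1 point per gene, with the 33 genes called lower in blue and the 84 called higher in red. The lower calls reach -4.46 (Slc6a4), the higher calls 2.82, and grey points at large differences are genes whose libraries overlap.

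Of the 4 opioid receptor genes, 1 separated the sides. Over all genes compared, 2.76% lay above all others and 1.55% below, whatever the size of the difference. Single members of the receptor lists that did so are therefore given as values, not as a result about the lists. Oprm1, the mu-opioid receptor at which morphine acts, stood at 19.8, 18.9 and 17.9 TPM in the 3 libraries and between 5.94 and 14.4 TPM (median 9.67) in the other 9, a difference of 0.84 with SDs of 0.07 (n = 3) and 0.35 (n = 9). All 3 values lay above all 9, with the lowest of the others in morphine-sired 2, but the difference was under the size used for a call. The delta (Oprd1), kappa (Oprk1) and nociceptin (Oprl1) receptor genes overlapped, with differences of -0.28, 0.19 and -0.07. Among the acetylcholine receptors, Chrnb2 lay above all others (48.2, 64.6 and 62 TPM against 34 to 43.4 TPM) and Chrnb3 below (0.776, 0.475 and 0.699 TPM against 0.81 to 7.5 TPM); none of the 14 was called. Annotated transcripts hold 2.42% of the Chrnb2 level, and from them alone its sides overlapped, with a difference of 0.04. Among the 12 serotonin receptors compared, Htr2c lay above all others, at 135, 121 and 139 TPM against 64.7 to 118 TPM, and none was called. From annotated transcripts alone, which hold 58.9% of its level, the Htr2c difference was -0.46 with overlap. The autoreceptor Htr1a overlapped, at 14.5, 10.9 and 12.1 TPM against 12.8 to 33.9 TPM.

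Ucn and Cartpt, peptide genes of the Edinger-Westphal nucleus beside the oculomotor nucleus, were far lower in saline-sired 6 than in saline-sired 1 and morphine-sired 1. Ucn, urocortin, stood at 106 TPM in saline-sired 1, 10.5 in saline-sired 6 and 86.7 in morphine-sired 1, against 105 to 337 TPM. Cartpt, the precursor of the CART peptide, stood at 986, 155 and 979 TPM against 909 to 2355 TPM. Saline-sired 1 lay just above saline-sired 2, the lowest of the other 9, in both genes. Morphine-sired 1 did so for Cartpt but lay below all 9 for Ucn. Without saline-sired 6 the difference went from -1.71 to -0.69 for Ucn and from -1.38 to -0.49 for Cartpt. Of the 6 genes in this list, 3 had a lower and 3 a higher mean, with a median difference of -0.07. Cck and Lepr, the latter at a locus shared with another symbol, overlapped with differences of 0.46 and 0.28. Of the 19 neuropeptide genes compared, none was called; Cbln2, a synaptic organizer in that list, lay above all others with 58.2, 62.9 and 52.9 TPM against 16.6 to 51.9 TPM, although annotated transcripts hold 1.31% of its level and from them alone it overlapped. Avp, vasopressin, was the only call among 10 hypothalamic genes, at 0.757, 2.45 and 3.29 TPM against 3.44 to 123 TPM, with a gap from 3.29 to 3.44 TPM. Oxt, oxytocin, overlapped at 0.272, 0.5 and 0 TPM against 0 to 348 TPM.

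Calls were few among markers of other cell types. Over all genes 0.134% were called lower and 0.342% higher. Lists of this size, here and above, would mostly hold no call at those shares. No member was called among 16 oligodendrocyte, 11 oligodendrocyte precursor, 14 astrocyte, 13 microglia, 13 endothelial and mural, 13 ependymal, 11 meningeal and 6 blood genes, whose median differences ran from -0.35 (blood) to 0.08 (endothelial and mural cells). None was called among 14 pan-neuronal genes, with a median of 0.07, 11 forebrain genes (-0.27), 11 cerebellar genes (-0.15), 10 GABAergic midbrain regulators (-0.24) or 12 genes of fast transmitters (-0.04). Choroid plexus genes had a lower mean in 13 of 13 and a median of -0.48, and 1 was called: Ttr, transthyretin, the most abundant choroid plexus transcript. Ttr stood at 0.409, 0.286 and 1.81 TPM against 3.93 to 1756 TPM (median 19.7), a difference of -4.43, and in the other 9 it was highest in morphine-sired 2 and next highest in saline-sired 2, at 413 TPM. Choroid plexus RNA thus varied over a wide range among the other 9 libraries as well, and its part in the other differences was not tested. Lgals1, galectin-1, was called lower at 45.7, 87.6 and 56.6 TPM against 112 to 437 TPM, and Ifi27l2b at 2.02, 4.69 and 2.32 TPM against 5.72 to 15 TPM.

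**Figure D5:**
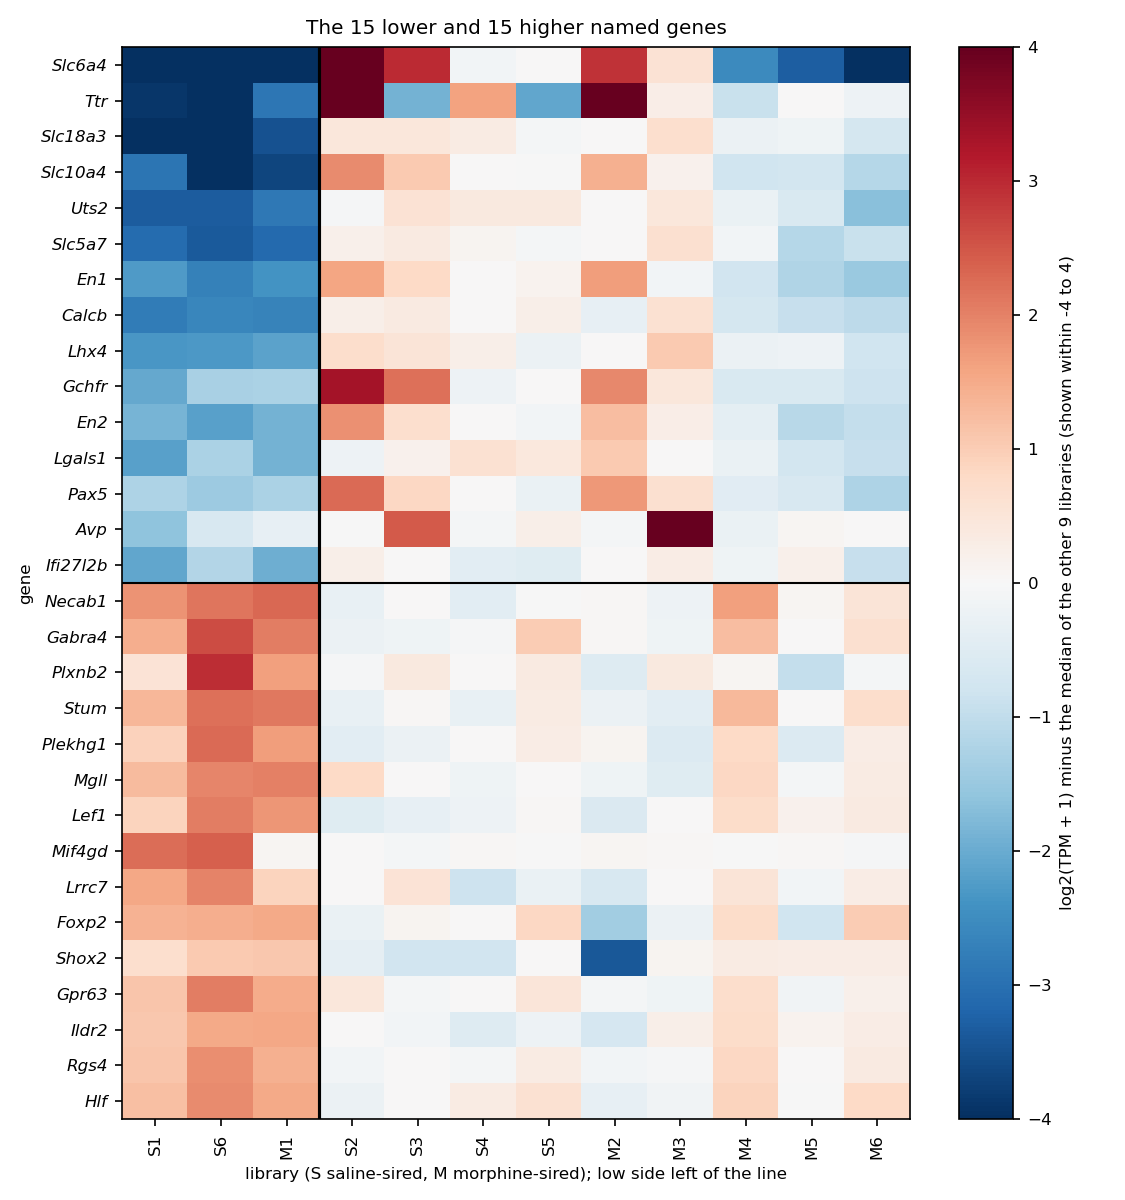
The 15 lower and 15 higher named genes (rows) in each library (columns), as log2(TPM + 1) minus the median of the other 9 libraries, coloured from -4 (blue) to 4 (red); the 3 columns left of the line are the low-marker side. The other 9 libraries are not alike: in the lower block morphine-sired 6 (M6) is often nearest to the low-marker side, and in the higher block morphine-sired 4 (M4).

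The libraries within each side differed from each other. For the 33 lower genes, the other library nearest to the low-marker side was morphine-sired 6 in 18, morphine-sired 5 in 6 and morphine-sired 4 in 4. For the 84 higher genes, it was morphine-sired 4 in 42 and morphine-sired 6 in 12. The median distance from the other side's median over the 33 lower genes was -1.81 in saline-sired 1, -1.46 in saline-sired 6 and -1.42 in morphine-sired 1, against -0.76 in morphine-sired 6. Over the 84 higher genes it was 1.12, 1.42 and 1.30, against 0.59 in morphine-sired 4 and 0.30 in morphine-sired 6. Saline-sired 6 was the most extreme of the 3 in 51 of the 84 higher genes, and saline-sired 1 was the one nearest to the other side in 58. These values come from genes picked for separating the sides and describe their spread only.

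The gap between the sides was at least 1.5-fold between the nearest libraries in 18 of the 33 lower and 16 of the 84 higher genes, and under 1.1-fold in 4 and 15. On one side the mean lay below the filter of 0.5 TPM in 12 of the 33 lower and 15 of the 84 higher genes, so those passed through the side where they were high.

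Sire treatment was the only labelled contrast, and the split crosses it unevenly, with 2 of the 3 low-marker libraries saline-sired. In a limma fit of log2(TPM + 1) on sire treatment over all 12 libraries, 0 of 24540 genes passed a Benjamini-Hochberg adjusted p of 0.05 (0%), the smallest adjusted p was 0.358, and 790 genes (3.22%) had an unadjusted p under 0.05. Litter and sire are not in the labels, and the p-values take the animals to be independent. With the side of the split as a term, limma called 0 genes again, with 823 genes (3.35%) at an unadjusted p under 0.05 and a smallest adjusted p of 0.333. The median residual SD of a gene went from 0.241 to 0.230 over all genes and from 0.719 to 0.429 over the 117 called genes, the second being partly a product of choosing them for the split. The sire difference of Slc5a7, Slc18a3, En1 and Lef1 did not pass in either fit.

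Without the 3 low-marker libraries, limma called 1 gene for sire treatment, AABR07044389.1 on chromosome 20 (4510034 to 4517128, 4 exons), with a log2 difference of 2.54 and an adjusted p of 0.00140. Its TPM ran from 0.540 to 1.36 in the 4 saline-sired libraries that remained and from 8.89 to 13.3 in the 5 morphine-sired ones. Of the low-marker libraries, morphine-sired 1 lay within the morphine-sired range, at 13.2 TPM, whereas saline-sired 1 (7.68 TPM) and saline-sired 6 (10.5 TPM) lay far above the other saline-sired libraries. Over all 12 libraries its adjusted p in limma was 0.9998.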

How the data were processed

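PolyA RNA of the periaqueductal grey was sequenced from 12 rats. Per the submitters' processing notes, the build was Rnor_6.0 and the tools included HISAT2 2.2.0 and StringTie 2.1.2; the per-sample files were written by StringTie 1.3.6, per the file headers. Those files, as deposited by the authors, hold coverage, FPKM and TPM for 76232 transcripts, of which 35169 were assembled in the series. A deposited table of the whole series gave the gene symbols of annotated transcripts; its 12 columns of values are not used here. No source states the read layout or strand, and genes that overlap cannot be told apart.

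TPM was summed per locus and symbol into 41596 genes, an assembled transcript being added to a symbol if no other symbol is at its locus; in 628 loci several symbols share assembled transcripts. StringTie divides reads among overlapping transcripts, and TPM is relative to a library's total. Genes averaging 0.5 TPM or more were kept and log2(TPM + 1) was used. The limma fits (limma 3.58.1, R 4.3.3; lmFit and eBayes with a trend, two-sided) were tested on simulated data. Python 3.11.15 with numpy 2.4.6, pandas 2.3.3 and matplotlib 3.10.9 did the rest. Depth is the median ratio of coverage to FPKM, 4.385 to 6.032 gigabases (median 5.154); low genes are the least precise.

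The members, the 32 gene lists and the rules were chosen with earlier results of these data known. Named were the 4 marker genes, up to 8 genes with the largest difference from the serotonergic and cholinergic lists and up to 4 from the others, and the 15 lower and 15 higher called genes with the largest difference that have a proper symbol. Outside that rule, Calca, Drd2, Dbh, Foxa2, Ntng1, Pou4f1, MSTRG.18098 and AABR07044389.1 were named after their values were seen. Alternatives changed the pseudocount, the filter, the transcripts used, the scaling, the size of a call and the libraries.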

Additional observations from a re-analysis of the deposited data

Results flagged for a closer look

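In 30 gene lists, the mean log2(TPM + 1) of the compared members was examined for a library far from the rest of the other 9, by Dixon's ratio of gap to range. 4 lists had one. Chance flags about 1 in 20 independent groups. The lists share the same 9 libraries and some members, so the 4 flags cannot be weighed against that rate. The cerebellar list was highest in saline-sired 2, at 5.40 against 2.45 to 2.91 in the remaining 8; Pcp2 of Purkinje cells stood at 166 TPM there and Cbln3 of granule cells at 33.8 TPM. The ependymal list was lowest in morphine-sired 2, at 1.64 against 3.20 to 4.50. The blood list was highest in morphine-sired 2, at 7.17 against 5.42 to 6.14, with Hba-a1 at 1146 TPM. The mitochondrial genome list was lowest in morphine-sired 6, at 11.95 against 12.54 to 12.76, with CYTB at 40.8 TPM against 10350 to 11530 TPM; the CYTB locus shares assembled transcripts with another symbol, which makes its level uncertain, and ATP8 and ND6 in that library lay within the range of the others. Only the other 9 libraries were examined, so a low-marker library could not be flagged. Without saline-sired 2 and morphine-sired 2 together, 41 genes were called lower and 79 higher.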

How the results depend on the processing

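No paired analysis was possible because the labels give no replicate numbers; the numbers used here follow accession order and pair nothing. Against 33 lower and 84 higher genes, the counts were 57 and 133 with a pseudocount of 0.1 TPM, 18 and 39 with a filter at 5 TPM, 161 and 325 with only the saline-sired libraries, 269 and 386 with only the morphine-sired ones, 381 and 677 for no overlap alone, and 90 and 234 with a size of 0.58. From annotated transcripts alone 38 genes were higher and 34 lower, of which 27 and 22 were among the original calls, and the thalamic and habenular median was 0.25. Leaving out 1 library gave 33 to 83 lower and 78 to 202 higher genes, the highest both without saline-sired 1. Rescaling gave 36 and 70, group medians 31 and 82, and no filter 33 and 85. Of 3229 values of 143 named genes under the alternatives, 3171 moved by less than the spread between libraries. Of 690 list medians, 681 stayed within that spread. No named gene that was called changed sign in the alternatives that still held it. Sign was scored for the named called genes only, so changes such as those of Tcf7l2 and Gbx2 were not counted. Other called genes were not scored. Plekhg1 and Gpr63, with 0% of their level in annotated transcripts, had no value from those alone. Splitting by Tph2 alone, by Chat alone or with both thresholds at 5 times their value gave the same 3 libraries, so those values could not move. The filter at 5 TPM could not change the difference of a gene it kept. The limma sire test called 0 to 1 genes when 1 library was left out (1 each without saline-sired 4, adjusted p 0.0399, and without saline-sired 6, 0.042), and 1 without the low-marker libraries; the cause was not tested. The main limits are the 3 libraries of the low-marker side, their selection by measured values, and levels near 0 TPM, where a small gap decides a call.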

Other observations

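Among called genes not described above, several encode synaptic or signalling proteins. Camk2a, a kinase of excitatory synapses, stood at 209.6, 336.6 and 213.7 TPM in saline-sired 1, saline-sired 6 and morphine-sired 1 against 85.8 to 157.3 TPM in the other 9. Npy1r, a neuropeptide Y receptor, stood at 10.7, 12.2 and 11.4 TPM against 3.58 to 6.81 TPM. The prototoxin genes Lypd6 (20.9, 34.5 and 28.5 TPM against 5.44 to 17.3 TPM) and Lypd6b (21.6, 34.5 and 23.1 TPM against 5.48 to 16.3 TPM), neighbours on chromosome 3 whose relatives bind nicotinic receptors, were both called higher. On the lower side, Nmu, neuromedin U, stood at 0.478, 0.998 and 0.189 TPM against 1.37 to 3.99 TPM, and Dlk1 at 107.8, 48.9 and 117.7 TPM against 141.2 to 275.7 TPM. These genes were picked after their values were seen.

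Pdgfra, the receptor of oligodendrocyte precursors, took 2 levels that do not follow the sides: 22.4, 0.607 and 22.2 TPM in the 3 low-marker libraries and 0.673 to 20.6 TPM (median 1.13) in the other 9. Its locus shares assembled transcripts with another symbol, which makes its level uncertain.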
